A study of Mus musculus with 8 samples.

Results

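The developmental pluripotency associated genes Dppa2, Dppa3, Dppa4 and Dppa5a were followed in mouse embryonic stem (ES) cells and mouse induced pluripotent stem (iPS) cells. They were found as the probe sets to which the platform annotation gives one of these 4 symbols alone. This gave 5 of 45101 probe sets, 2 for Dppa2 and 1 for each other gene, and all 4 genes were among the 14004 tested. The series holds 8 expression arrays, 2 for each of 4 groups, named ES control and iPS lines 1, 2 and 3. iPS cells are somatic cells returned to pluripotency, and those used here are described as free of integrated vector. All 4 groups were male and of C57BL/6 strain, were grown in N2B27 medium with mouse LIF and were taken at passage 7 to 10. The controls were 1 ES line, and the labels give neither the donor cell type nor the vectors. The titles call the 2 arrays of a line biological replicates and do not say what was replicated, such as a culture or a passage, so that p-values measure the spread between the arrays of a line.

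Dppa2 and Dppa4 are neighbouring genes for chromatin proteins with a SAP domain, a DNA-binding fold. The proteins bind each other, are found in pluripotent cells and the early germ line, and help to open the programme of the 2-cell embryo and to keep some promoters free of DNA methylation. Dppa3, also called Stella or PGC7, is a maternal factor that protects DNA from changes in methylation, restrains the maintenance methylation factor Uhrf1 and marks primordial germ cells. Dppa5a, also called Esg1, encodes an RNA-binding protein with a KH domain and is a marker of pluripotent cells.

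All 10 ES cell markers lay above the low-signal floor of 37.1 in every array. The floor is the 40th percentile of all signals. The summed signal of these markers was 97220 to 101663 in ES cells and 89252 to 95655 in the iPS arrays. Of 10 fibroblast markers, 1 to 3 exceeded the floor in both arrays of a line, and Col1a1, Postn, Dcn and Twist2 were at or under it in all 4 lines. Their summed signal was 202 to 256 in ES cells, 264 to 286 in lines 1 and 3 and 299 to 308 in line 2. The summed signal of 8 trophoblast markers was 1469 to 1517 in line 2 and 777 to 964 in the other groups. It was 519 to 646 over all groups for 10 primitive endoderm markers. For 8 neural markers it was 1140 to 1234 in lines 1 and 3 and 808 to 893 in ES cells and line 2. The ratio of 3' to 5' signal of beta-actin, which rises as RNA breaks down, was highest in line 2, at 1.74 and 1.79 against at most 1.62 elsewhere. The same ratio for Gapdh overlapped, at 0.915 and 0.946 in line 2 and 0.856 to 0.935 elsewhere. The part of these marker levels and ratios in the results below was not tested.

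The 4 genes did not share a pattern. Dppa3 was higher in each of the 3 iPS lines than in ES cells. Dppa2 and Dppa4 were lowest in line 2, where Dppa2 stood at 38.3% and Dppa4 at 57.6% of the ES level. Both differed from ES cells by -0.03 log2 units in line 3. Dppa5a passed the test against ES cells in no line. In a bulk sample, fewer cells with a transcript and less transcript per cell cannot be told apart.

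**Figure D1:**
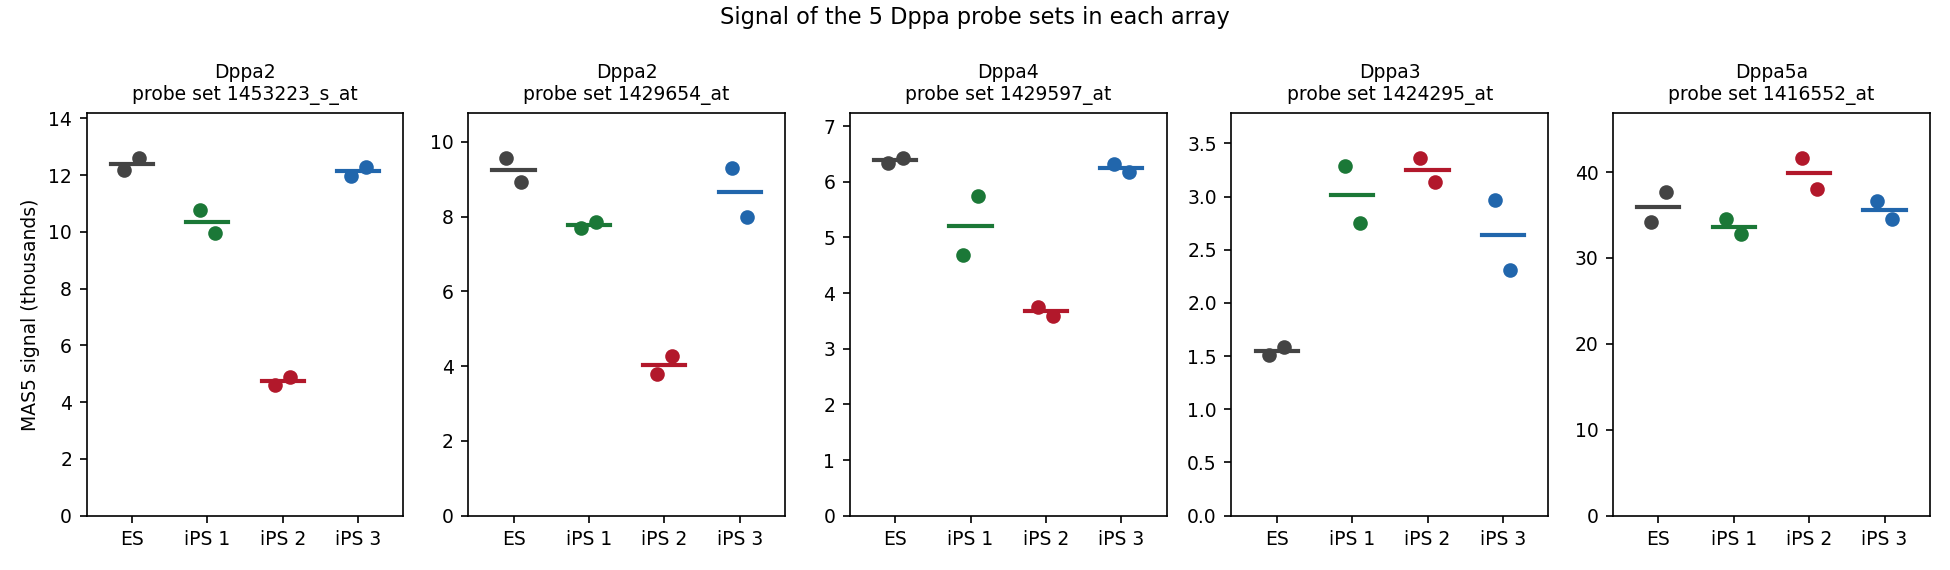
Each panel shows the deposited MAS5 signal of 1 probe set on a linear axis from 0, with a point for each array and a bar at the mean of the 2 arrays of a line. Both Dppa2 probe sets and Dppa4 are lowest in iPS line 2, all 6 iPS arrays lie above both ES arrays for Dppa3, and the 8 arrays lie between 32784 and 41673 for Dppa5a.

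For Dppa2, the signals of the probe set used for the gene (1453223_s_at) were 12162 and 12612 in ES cells. They were 10757 and 9952 in line 1, 4594 and 4876 in line 2, and 11976.5 and 12278 in line 3. Both arrays of line 2 were below the other 6, those of line 1 came next, and line 3 overlapped ES cells. Dppa2 fell 2.61-fold in line 2 (log2 difference -1.39 ± 0.06 SE, 2 arrays in each group, limma with Benjamini-Hochberg adjustment over 14004 genes, adjusted p = 2.66e-08). Log2 values here and below are of the signal plus a pseudocount of 12.4. In line 1 Dppa2 fell to 83.6% of the ES level (-0.26 ± 0.06, limma adjusted p = 0.0424), and this call was kept under 8 of 21 alternatives. It was lost without either array of ES cells, line 1 or line 3 (-0.32 to -0.20 over these). In line 3 the difference was -0.03 ± 0.06 (limma adjusted p = 0.843), with a 95% confidence interval of -0.16 to 0.10.

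The other Dppa2 probe set, 1429654_at, gave 9575 and 8915 in ES cells, 7709 and 7843 in line 1, 3801 and 4273 in line 2, and 9311 and 7984 in line 3. The order of the lines was the same as on the first probe set. Tested among all 25733 probe sets above the floor, it fell in line 2 (-1.19 ± 0.08, limma adjusted p = 9.69e-07). Its values were -0.25 ± 0.08 in line 1 (limma adjusted p = 0.216) and -0.10 ± 0.08 in line 3 (limma adjusted p = 0.617).

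Between the iPS lines, Dppa2 was 2.18-fold higher in line 1 than in line 2 (1.13 ± 0.06, limma adjusted p = 4.16e-07). It was lower in line 2 than in line 3 (-1.36 ± 0.06, limma adjusted p = 1.93e-08). Lines 1 and 3 differed by -0.23 ± 0.06 (limma adjusted p = 0.091), with an interval of -0.36 to -0.10. In descending order the levels were those of ES cells, line 3, line 1 and line 2, and the neighbours in this order that passed the test were lines 1 and 2.

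Dppa4, the partner of Dppa2, gave signals of 6342 and 6433 in ES cells. The values were 4684 and 5739 in line 1, 3757 and 3593 in line 2, and 6316 and 6175 in line 3. Line 2 was again lowest, and the 2 arrays of line 1 were far apart from each other compared with those of the other lines. Dppa4 fell 1.74-fold in line 2 (-0.80 ± 0.08, limma adjusted p = 2.04e-05). In line 1 it stood at -0.30 ± 0.08 (limma adjusted p = 0.0913), with an interval of -0.48 to -0.12. Leaving out replicate 2 of line 1 gave -0.45 with a limma adjusted p of 0.0153, and leaving out replicate 1 gave -0.15. In line 3 the difference was -0.03 ± 0.08 (limma adjusted p = 0.878), with an interval of -0.21 to 0.15.

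Dppa4 was 1.41-fold higher in line 1 than in line 2 (0.50 ± 0.08, limma adjusted p = 0.000989). It was lower in line 2 than in line 3 (-0.76 ± 0.08, limma adjusted p = 2.16e-05). The difference between lines 1 and 3 was -0.27 ± 0.08 (limma adjusted p = 0.148). Without replicate 2 of line 1 it was -0.41 and passed (limma adjusted p = 0.0324), and without replicate 1 of line 1 it was -0.12. With all arrays, the levels had the same order as those of Dppa2, and the neighbours that passed the test were lines 1 and 2. Over the 8 arrays the log2 values of Dppa2 and Dppa4 correlated at a Pearson r of 0.94, and at 0.66 over the 6 arrays without line 2. These arrays share lines and a common signal scale, and the higher value rests on line 2.

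Dppa3 gave signals of 1513 and 1586 in ES cells. Line 1 had 3284 and 2752, line 2 had 3365 and 3135, and line 3 had 2967 and 2308. All 6 iPS arrays were above both ES arrays. Line 1 overlapped lines 2 and 3, and both arrays of line 3 were below those of line 2. Dppa3 rose 1.93-fold in line 1 (0.95 ± 0.11, limma adjusted p = 0.000564). The rise was 2.09-fold in line 2 (1.06 ± 0.11, limma adjusted p = 2.39e-05). In line 3 it was 1.68-fold (0.75 ± 0.11, limma adjusted p = 0.0025). The calls in lines 1 and 3 were lost when limma was run without a variance trend over intensity (adjusted p = 0.106 and 0.12).

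In descending order the Dppa3 levels were those of line 2, line 1, line 3 and ES cells. No pair of iPS lines passed the test for Dppa3 in limma. The difference was -0.11 ± 0.11 for line 1 against line 2 (limma adjusted p = 0.533, interval -0.35 to 0.13). It was 0.20 ± 0.11 for line 1 against line 3 (limma adjusted p = 0.473, interval -0.04 to 0.44). Line 2 against line 3 gave 0.31 ± 0.11 (limma adjusted p = 0.0512, interval 0.07 to 0.55), which stayed on this side of the threshold under 12 of 20 alternatives. It was past it without either array of line 1 and, at 0.49, without replicate 1 of line 3.

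Dppa5a gave signals of 34236 and 37665 in ES cells, 34484 and 32784 in line 1, 41673 and 38062 in line 2, and 36622 and 34490.5 in line 3. Both arrays of line 2 were above the other 6, which overlapped. The differences from ES cells were -0.09 ± 0.06 in line 1 (limma adjusted p = 0.567), 0.15 ± 0.06 in line 2 (limma adjusted p = 0.106) and -0.01 ± 0.06 in line 3 (limma adjusted p = 0.934). The interval in line 2 was 0.01 to 0.29, or a ratio of 1.01 to 1.22, and the value was 0.055 and 0.061 under the other scalings of the arrays. Line 1 was 1.18-fold lower than line 2 (-0.24 ± 0.06, limma adjusted p = 0.0147), a call that was kept under 15 of 20 alternatives. It was lost under both other scalings of the arrays (limma adjusted p = 0.0519 and 0.409), without replicate 2 of line 1 (-0.21) and without replicate 1 of line 2 (-0.18). Line 2 against line 3 gave 0.16 ± 0.06 (limma adjusted p = 0.0691), or 0.030 with arrays centred on the median, and line 1 against line 3 gave -0.08 ± 0.06 (limma adjusted p = 0.642). The Dppa5a signals were among the 51 highest on every array, at 75.4% to 86.8% of the array's maximum. Whether signals this high still follow the amount of RNA in proportion was not tested.

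**Figure D2:**
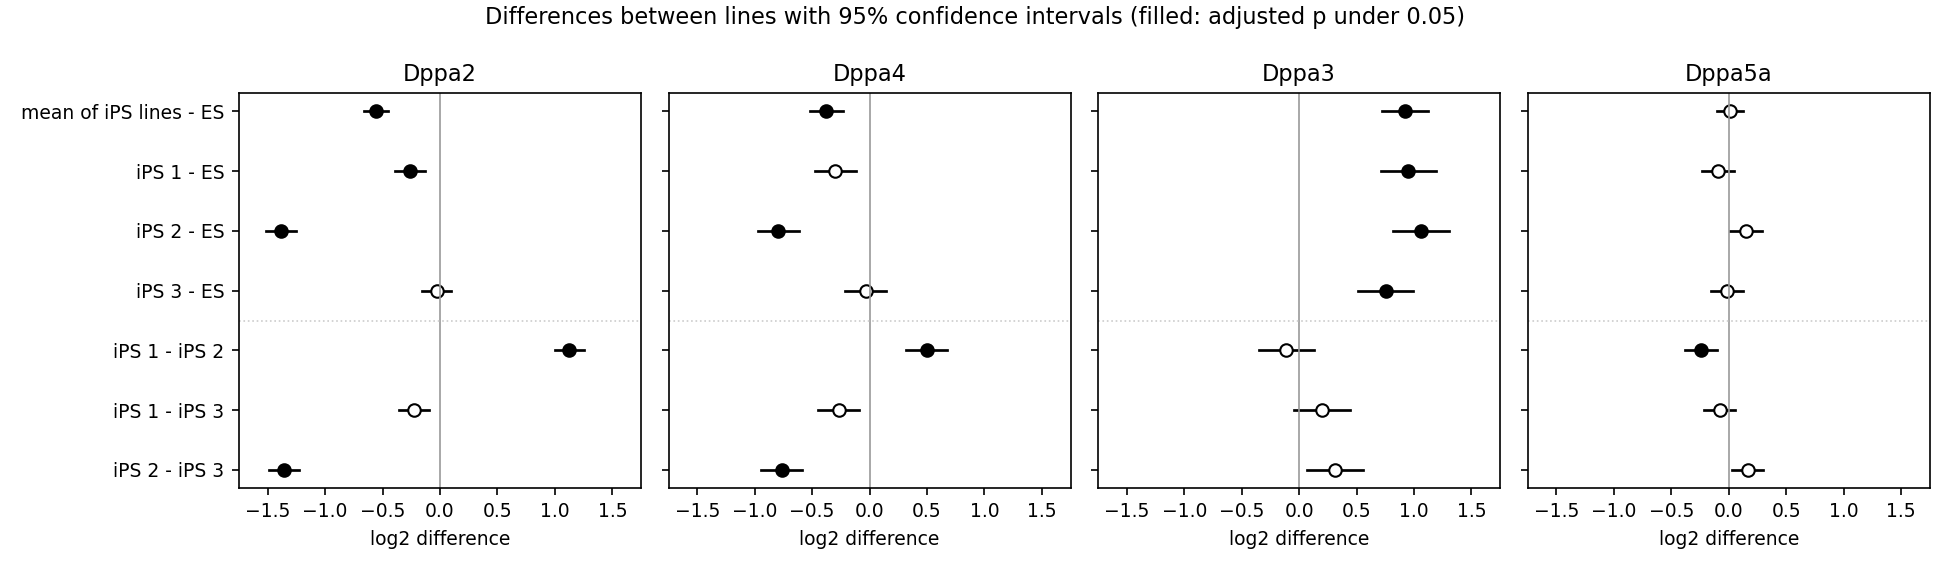
Points give the log2 difference of each Dppa gene for the mean of the 3 iPS lines and each iPS line against ES control and for each pair of iPS lines, bars give the 95% confidence interval from limma, and filled points have an adjusted p under 0.05. Dppa3 is above 0 in all 4 comparisons with ES cells, and Dppa2 and Dppa4 are furthest below 0 in line 2.

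The average difference of the 3 iPS lines from ES cells was tested as well. Its SE and p-values measure the spread between the arrays of a line and leave out the spread between lines. In this mean, 1 of 4 Dppa genes rose and 2 fell, where 7.3% of all 14004 genes passed the test, 4.27% higher and 3.03% lower. Dppa3 rose by 0.92 ± 0.09 (limma adjusted p = 5.85e-05). Dppa4 fell by 0.38 (SE 0.07, limma adjusted p = 0.00437), and its call was lost without ES replicate 1 (limma adjusted p = 0.0633) and without ES replicate 2 (limma adjusted p = 0.0638). For Dppa2 the mean (-0.56 ± 0.05) joins -1.39 in line 2 with -0.03 in line 3. Without line 2, Dppa2 stood at -0.14 and Dppa4 at -0.17, and neither passed (limma adjusted p = 0.158 and 0.269). Dppa3 kept its call without line 2, at 0.85. Dppa5a was at 0.01 ± 0.05 (limma adjusted p = 0.918), with an interval of -0.10 to 0.13.

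By line, 2 of 4 Dppa genes passed in line 1, 1 higher and 1 lower, where 2.34% of all genes did (1.21% higher and 1.12% lower). In line 2, 3 passed, 1 higher and 2 lower, against 26.7% of all genes (16.1% higher and 10.6% lower). In line 3, 1 passed, higher, against 4.16% of all genes (1.58% higher and 2.58% lower). The median difference of the 4 genes was -0.32 in line 2, where that of all genes was 0.07. The 3 comparisons with ES cells share the same 2 ES arrays. Between lines 1 and 2, 3 of the 4 passed, 2 higher and 1 lower in line 1, where 23.3% of all genes did (9.53% higher and 13.8% lower). Between lines 2 and 3, 2 passed, both lower in line 2, where 31.2% of all genes did (19% higher and 12.1% lower). Between lines 1 and 3, 0 passed in limma, where 1.39% of all genes did (1.04% higher and 0.35% lower), and 2 had an unadjusted p under 0.05.

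Genes beside the Dppa loci were examined next, from the order of genes in the RefSeq table. On chromosome 16, Dppa4 and Dppa2 lie next to each other, and Morc1, which encodes an ATPase that silences transposons in male germ cells, is the second gene beyond Dppa2. The Morc1 signals were 6332 and 6554 in ES cells, 5205 and 5381 in line 1, 4490 and 4962 in line 2, and 6267 and 6110 in line 3. The order of the lines was again ES cells, line 3, line 1 and line 2. Morc1 fell in line 2 (-0.45 ± 0.06, limma adjusted p = 0.000241) and in line 1 (-0.28 ± 0.06, limma adjusted p = 0.0364), the latter call being lost under 9 of 20 alternatives, which include leaving out either array of ES cells, line 1 or line 3. In line 3 it stood at -0.06 ± 0.06 (limma adjusted p = 0.7). The probe sets of the non-coding neighbours Gm5485 and 6430553K19Rik did not exceed 23.1 and 13.9 in any array.

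On chromosome 6, Gdf3, a gene for a TGF-beta family ligand of pluripotent cells, lies beside Dppa3. Its signals were 4195 and 4380 in ES cells, 4156 and 3958 in line 1, 2713 and 2680 in line 2, and 4519 and 4399 in line 3. Gdf3 was thus lowest in line 2 (-0.67 ± 0.06, limma adjusted p = 8.19e-06), where Dppa3 rose. Apobec1, the next gene, which encodes a cytidine deaminase, rose in line 2 (0.79 ± 0.20, limma adjusted p = 0.012), a call lost without either ES array or replicate 1 of line 2. It stood at 0.18 ± 0.20 in line 1 and -0.66 ± 0.20 in line 3 (limma adjusted p = 0.763 and 0.101). Nanog, a homeobox regulator of pluripotency chosen here after its values were seen, differed by -0.17 in line 1, -0.19 in line 2 and -0.16 in line 3 (SE 0.07, limma adjusted p = 0.321, 0.0756 and 0.291).

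On chromosome 9, Ooep, a gene of the maternal complex of the egg cortex and a KH-domain relative of Dppa5a, lies beside Dppa5a. Its signals were 8131 and 8936 in ES cells, 6341 and 6316 in line 1, 7486 and 6982 in line 2, and 6848 and 6322 in line 3. All 6 iPS arrays were below both ES arrays. Ooep fell in line 1 (-0.43 ± 0.07, limma adjusted p = 0.00462), line 2 (-0.24 ± 0.07, limma adjusted p = 0.019) and line 3 (-0.37 ± 0.07, limma adjusted p = 0.0081). Without a variance trend none of these passed. The call in line 2 was also lost with quantile normalization, and that in line 3 with arrays centred on the median. All 3 calls were lost without ES replicate 2, and those in lines 2 and 3 also without replicate 2 of that line. Ddx43, the next gene, which encodes a helicase, fell in line 2 (-0.44 ± 0.10, limma adjusted p = 0.00552), a call lost without ES replicate 2. Gsta2, on the other side, was at 35.0 to 65.2 in all arrays and passed in no line (limma adjusted p of 0.466 to 0.755), and Omt2b did not exceed 25.1.

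The genes whose log2 values followed each Dppa gene most closely over the 8 arrays were drawn from those whose group means spanned at least 0.5 log2 units. For Dppa2 they were Ranbp2, Eprn and Scaf8 (Pearson r of 0.995, 0.995 and 0.994, and 0.887, 0.868 and 0.829 over the 6 arrays without line 2). Their differences from ES cells in line 2 were -0.58, -1.19 and -0.63. For Dppa4 they were Egfl6, Agtpbp1 and Btbd11 (r of 0.99, 0.98 and 0.98, and 0.94, 0.90 and 0.93 without line 2). These genes stood at -0.91, -1.24 and -1.12 in line 2. These genes were chosen by r over arrays that include the drop of Dppa2 and Dppa4 in line 2. Their low level there follows from that choice.

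For Dppa3 the closest genes were Fhdc1, Ap1m2 and Esrp1 (r of 0.97, 0.97 and 0.96, and 0.97, 0.97 and 0.95 without line 2). Ap1m2 encodes an epithelial clathrin adaptor subunit and Esrp1 an epithelial splicing regulator. Ap1m2 stood at 0.76, 1.04 and 0.66 in lines 1, 2 and 3. Esrp1 stood at 1.10, 1.42 and 1.12. The Fhdc1 probe set was at or under the floor in ES cells (24.5 and 26.9) and between 67.7 and 98.6 in the iPS arrays. For Dppa5a, whose own group means spanned less than 0.5, the closest genes were Rccd1, Armcx6 and Ly6g6e (r of 0.96, 0.96 and 0.95). They stood at 0.40, 1.07 and 0.47 in line 2 and at -0.27, -0.45 and -0.33 in line 1, and Armcx6 did not exceed 67.1 in any array and was under the floor in most. These r values describe 8 arrays that share lines and scale, with no test.

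**Figure D3:**
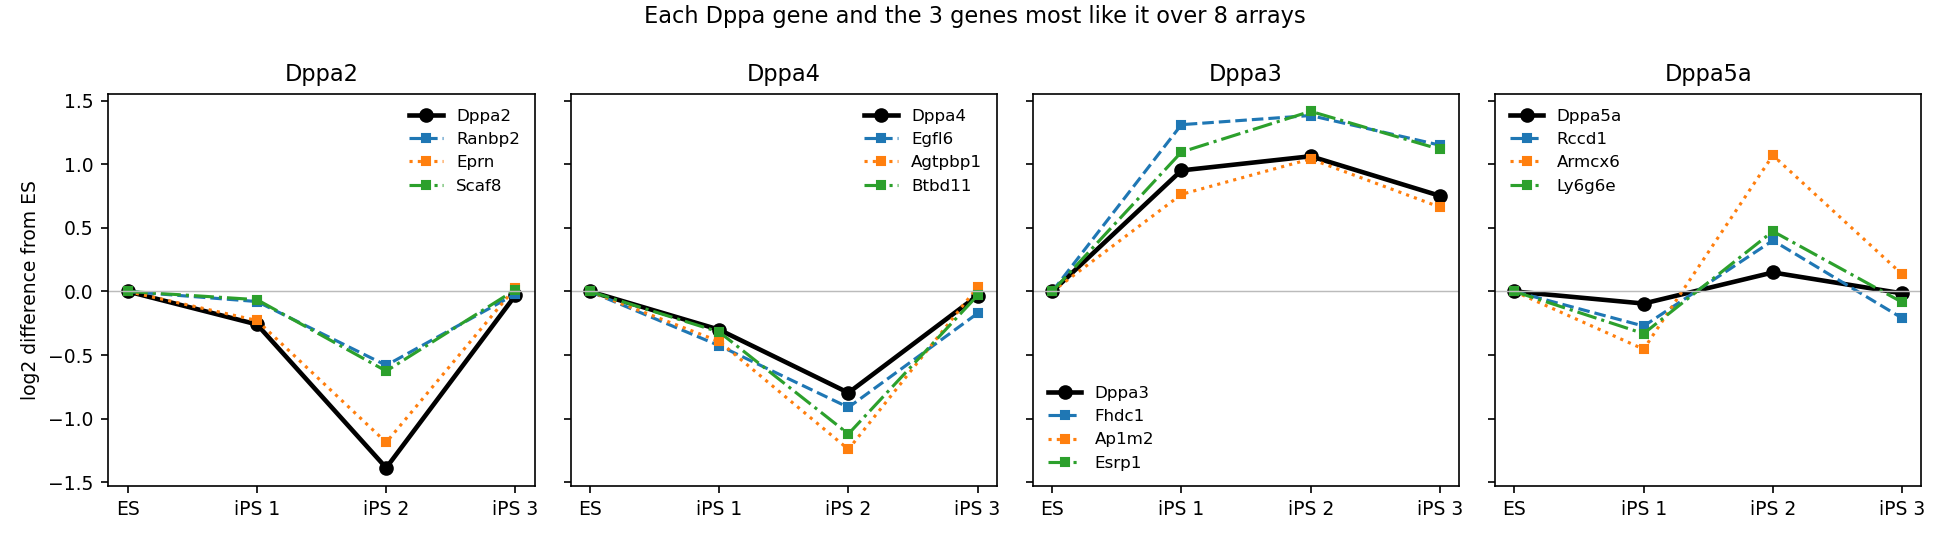
Lines join the log2 difference from ES control, set at 0, in iPS lines 1, 2 and 3 for each Dppa gene (black) and for the 3 genes with the highest Pearson r to it over 8 arrays. The genes drawn with Dppa2 and Dppa4 dip in line 2, and those drawn with Dppa3 are above 0 in all 3 lines. The choice by r brings these patterns with it.

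A list of 23 genes known to depend on Dppa2 and Dppa4, mostly of the 2-cell programme, was thinly covered. The annotation gave 9 of them a probe set alone, and 5 exceeded the floor in at least 2 arrays. In the mean of the lines 0 of 5 passed in limma, where 7.3% of all genes did, and 0 had an unadjusted p under 0.05. The median difference of the 5 genes was -0.67 in line 1, -0.50 in line 2 and 0.09 in line 3. This median was lowest in line 1, where 0 of the 5 passed in limma, whereas Dppa2 and Dppa4 were lowest in line 2. Compared directly, line 1 against line 2 gave a median of -0.008, with 1 gene higher and 1 lower in line 1. Zfp352 (20.4 to 75.0) and Tcstv1 (34.8 to 89.5) were under the floor in some arrays. Whether the medians of lines 1 and 2 differ was not tested, so their order is not a result. In line 2, 1 of the 5 passed, Syce1, which fell (-0.53 ± 0.13, limma adjusted p = 0.00787), where 10.6% of all genes fell. Syce1 encodes a protein of the synaptonemal complex, and its signals in line 2 were 287 and 312 against 439 and 435 in ES cells. The call was lost without replicate 1 of line 2 (-0.47, limma adjusted p = 0.0509). It stood at -0.03 in line 1 and 0.17 in line 3, and neither passed (limma adjusted p = 0.944 and 0.538). Zfp352, a zinc finger gene of the 2-cell embryo, was at -0.50 ± 0.46 in line 2 (limma adjusted p = 0.471). Tcstv1 was at -0.71 ± 0.33 (limma adjusted p = 0.143) and Usp17la at -0.16 ± 0.20 (limma adjusted p = 0.608). The Zscan4 genes had no probe set of their own in the annotation.

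Of 10 tested genes of the DNA methylation machinery, 1 rose and 3 fell in the mean of the lines, where 4.27% of all genes rose and 3.03% fell, with a median of -0.05 against 0.02 for all genes. Dnmt3b, a de novo methyltransferase gene, rose in line 1 (0.38 ± 0.07) and line 3 (0.85 ± 0.07) and stood at -0.19 ± 0.07 in line 2 (limma adjusted p = 0.0171, 0.000112 and 0.0797). The call in line 1 was lost without either array of ES cells or of line 1. Without a variance trend, the Dnmt3b calls in lines 1 and 3 were both lost. Dnmt3l, its cofactor, gave 2159 and 2074 in ES cells, 1838 and 1818 in line 1, 897 and 864 in line 2, and 2592 and 2595 in line 3. It fell in line 2 (-1.25 ± 0.07, limma adjusted p = 1.78e-07) and rose in line 3 (0.29 ± 0.07, limma adjusted p = 0.0376). The line 3 call of Dnmt3l was lost without either array of ES cells, line 1 or line 3. It was also lost with arrays centred on the median and without a variance trend. Zfp57, which guards imprinted methylation, fell in line 2 (-1.09 ± 0.16, limma adjusted p = 0.000268). Tet2, a gene for an enzyme that oxidises methylcytosine, also fell there (-0.63 ± 0.07, limma adjusted p = 3.94e-05). Uhrf1, the factor restrained by Dppa3 and chosen after its values were seen, was at -0.10, -0.02 and -0.04 in lines 1, 2 and 3 and passed in none (limma adjusted p of 0.504 to 0.863). These are RNA levels, and the restraint of the factor by Dppa3 was not measured. Other genes of this list did move in line 2, where 1 of the 10 was higher and 4 were lower (16.1% and 10.6% of all genes). Dnmt1 rose there (0.32 ± 0.06, limma adjusted p = 0.00265) and Dnmt3a fell (-0.24 ± 0.08, limma adjusted p = 0.0411). With arrays centred on the median, 0 were higher and 5 lower in line 2. Without line 2, 1 gene of this list was higher and 1 lower in the mean, and Dnmt3l stood at 0.04 where it had been at -0.39.

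Among 13 tested primordial germ cell genes, 2 rose and 4 fell in the mean (4.27% and 3.03% of all genes), with a median of 0.06. Without line 2 the counts were the same, and the median was -0.23. In line 2, 7 rose and 3 fell, where 16.1% of all genes rose and 10.6% fell. There 5 rose and 4 fell with quantile normalization. The counts were 5 and 3 with arrays centred on the median, and also without a variance trend. Tfap2c, a germ cell specifier and trophoblast regulator, rose in line 1 (0.51 ± 0.11, limma adjusted p = 0.034, lost without either array of ES cells or line 1) and line 2 (1.03 ± 0.11, limma adjusted p = 3.57e-05). The probe set used for Tfap2c ends in _s_at, and when such sets and those ending in _x_at were dropped, Tfap2c stood at 0.34 in line 1, which did not pass (limma adjusted p = 0.172), and at 0.65 in line 2 and 0.35 in the mean, which did. In line 3, where Dppa3 also rose, Tfap2c stood at 0.31 ± 0.11 (limma adjusted p = 0.171). Tex19.1, a gene that restrains transposons in the germ line, fell in lines 1 and 2 (-0.54 and -0.75, SE 0.08, limma adjusted p = 0.00216 and 1.77e-05). The interferon-induced membrane protein genes Ifitm1 and Ifitm3 went opposite ways in the mean, at 0.36 ± 0.06 and -0.33 ± 0.04 (limma adjusted p = 0.00176 and 0.00066). The call of Ifitm1 was lost without ES replicate 1. By line, Ifitm3 was at -0.23, -0.53 and -0.22 in lines 1, 2 and 3, and its calls in lines 1 and 3 were lost under 11 and 9 of 20 alternatives, which include leaving out either array of ES cells, line 1 or line 3.

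Of 6 tested KH-domain and maternal complex genes, 2 fell and none rose in the mean of the lines (3.03% and 4.27% of all genes), with a median of -0.01. By line the median was -0.42, 0.33 and -0.18 for lines 1, 2 and 3, and it was -0.29 in the mean without line 2. The genes that fell were Ooep and Khdc3, which encodes the partner of Ooep in that complex. Khdc3 gave 1642 and 1577 in ES cells, 952 and 889 in line 1, 1191 and 1130 in line 2, and 794 and 770.1 in line 3. All 6 iPS arrays were below both ES arrays, and Khdc3 fell by 0.80, 0.47 and 1.03 log2 units in lines 1, 2 and 3 (SE 0.08, limma adjusted p = 0.000241, 0.00115 and 6.97e-05). These 3 calls were kept under every alternative run. Dppa5a, of the same family, passed in none of these comparisons.

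Of 21 pluripotency regulators, 6 fell and none rose in the mean (3.03% and 4.27% of all genes), with a median of -0.13. Nr0b1, an orphan nuclear receptor gene, fell by 1.34 log2 units in line 2 and by 0.47 and 0.46 in lines 1 and 3 (SE 0.08, limma adjusted p = 3.22e-07, 0.00809 and 0.00741). Tbx3 was at -0.37, -0.36 and -0.33 in lines 1, 2 and 3 and passed in each (limma adjusted p = 0.00857, 0.00122 and 0.0129). In lines 1 and 3 the calls of Nr0b1 and Tbx3 were lost without either ES array, those of Nr0b1 also without replicate 1 of that line, and those of Tbx3 also without replicate 2 of line 1 or either array of line 3. With the mean of all its probe sets, Tbx3 was at -0.47, -0.28 and -0.51 in lines 1, 2 and 3 and passed in line 3 alone (limma adjusted p = 0.076, 0.113 and 0.0396). In line 2, 11 of the 21 were lower and 1 higher, where 10.6% of all genes were lower and 16.1% higher. In line 3, 3 were lower and 1 higher, where 2.58% of all genes were lower and 1.58% higher. Without line 2, 3 were lower and 1 higher in the mean. Of 12 formative and primed genes, 1 rose and 2 fell in the mean (4.27% and 3.03% of all genes), led by Lef1, a Wnt pathway transcription factor (1.46 ± 0.13, limma adjusted p = 2.47e-05), with Foxd3 (-0.63 ± 0.10, limma adjusted p = 0.00208) and Nodal (-0.29 ± 0.06, limma adjusted p = 0.0116) lower. The call of Nodal was lost under 5 of 20 alternatives, which include leaving out either ES array and the mean of all its probe sets.

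**Figure D4:**
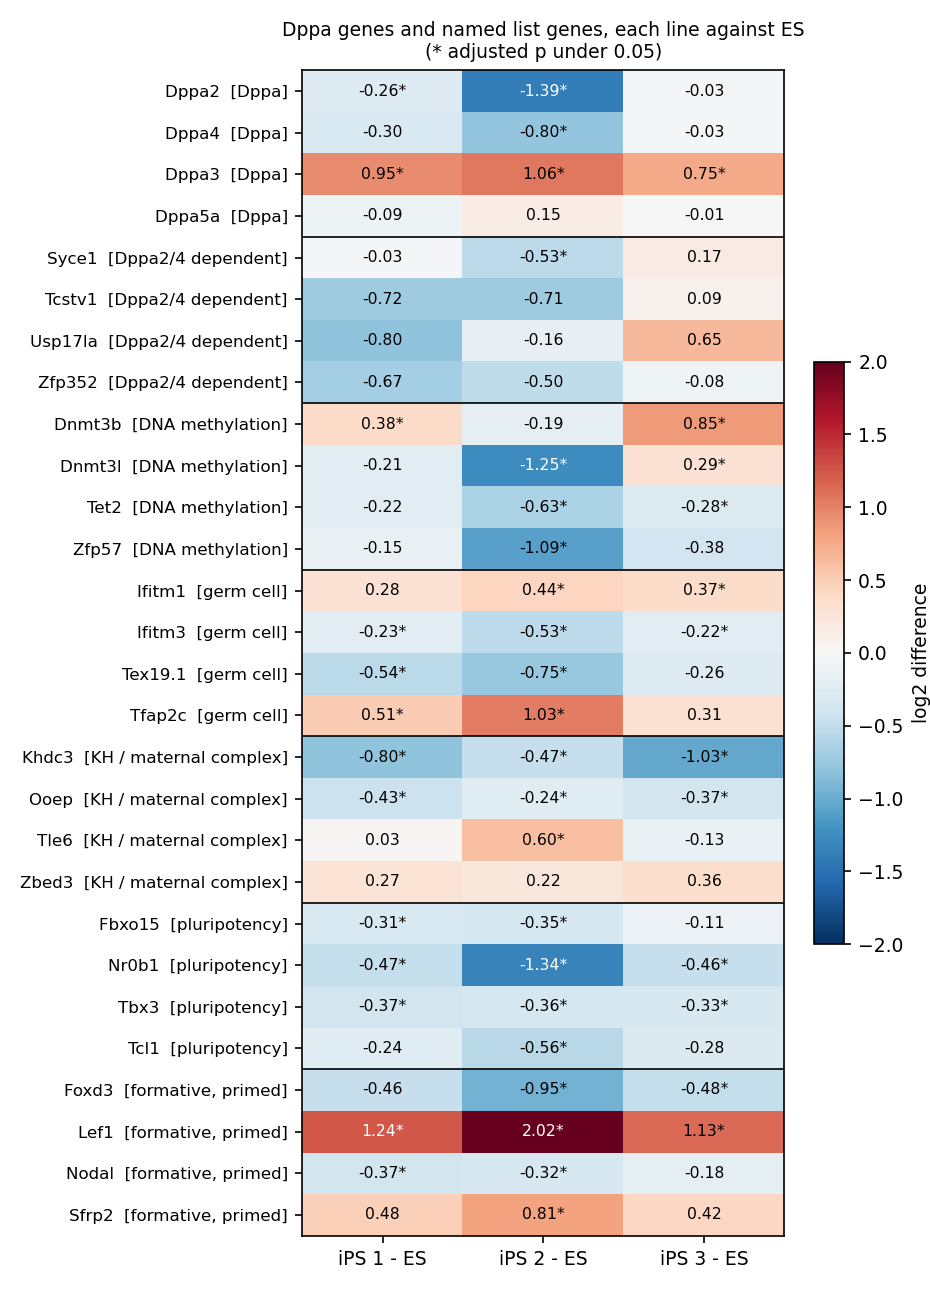
Cells give the log2 difference of each iPS line from ES control, coloured from blue (lower) to red (higher), for the 4 Dppa genes and for the 4 genes with the smallest p in the mean of the lines from each of 6 lists, and a star marks an adjusted p under 0.05. Dppa3, Lef1, Khdc3, Ooep, Nr0b1, Tbx3 and Ifitm3 are starred in all 3 lines, with the losses given in the text. Dppa2, Dppa4, Dnmt3l and Zfp57 are furthest below 0 in line 2, as are other rows such as Nr0b1, Ifitm3 and Tet2.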

How the data were processed

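Each array's values are intensity signals on a linear scale, deposited by the authors; MAS5 is the tool named, per the submitters' processing notes. Its version, scaling target and detection calls were not used here. Each array's trimmed mean was 500.004. The number of arrays limits the precision.

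The platform annotation gave 1 symbol to 34945 probe sets, several to 932 and none to 9160, and 64 were controls. Values were log2(signal + 12.4), where 12.4 is the 20th percentile, and folds are on this scale. A signal above 37.1, the 40th percentile, was required in at least 2 arrays, and the probe set with the highest mean stood for a gene. A group-means model over all 8 arrays was fitted with limma (version 3.58.1, R 4.3.3), with moderation by an intensity-dependent prior and 12.3 degrees of freedom in all. Tests were two-sided, with Benjamini-Hochberg adjustment over 14004 genes and a threshold of 0.05. The fit was also run on data simulated with its own variances, which cannot test whether its assumptions hold for these arrays.

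The members and lists were chosen with earlier results of these data known. Named are the members, the 4 genes of each of 6 lists with the smallest p in the mean of the lines, the 3 genes with the highest r to each member (clone names passed over) and the 2 nearest genes on each side. The RefSeq table (GRCm38.p6) gave only gene order. Alternatives covered scaling, pseudocount, filter, probe set choice, variance trend, replicate block, the samples fitted and each array left out.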

Additional observations from a re-analysis of the deposited data

Results flagged for a closer look

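Line 2 differed from both other iPS lines in Dppa2 and Dppa4. Dppa2 differed by 1.13 log2 units between lines 1 and 2 (limma adjusted p = 4.16e-07) and by -1.36 between lines 2 and 3 (limma adjusted p = 1.93e-08). Dppa4 differed by 0.50 between lines 1 and 2 (limma adjusted p = 0.000989) and by -0.76 between lines 2 and 3 (limma adjusted p = 2.16e-05). Dppa5a differed by -0.24 between lines 1 and 2 (limma adjusted p = 0.0147), a call lost under both other scalings of the arrays, and line 2 against line 3 did not pass for it (0.16, limma adjusted p = 0.0691).

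Dnmt3l passed the test against ES cells in opposite directions in lines 2 and 3. The call in line 3 was lost with arrays centred on the median and without a variance trend. It was also lost without either array of ES cells, line 1 or line 3. Dnmt3l differed by 1.04 between lines 1 and 2 (limma adjusted p = 1.92e-06), by -0.50 between lines 1 and 3 (limma adjusted p = 0.003) and by -1.55 between lines 2 and 3 (limma adjusted p = 2.5e-08).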

How the results depend on the processing

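Of the alternative values of the 28 Dppa results, 525 kept direction and side of the threshold, 28 lost a call, 11 gained one and 12 changed sign, all of the last in results that had not passed. The cause was not tested. With quantile normalization, Dppa5a was at -0.016 in the mean of the lines and -0.12 between lines 1 and 2, and Dppa3 passed between lines 2 and 3 (0.36). With arrays centred on the median, Dppa2 in line 1 was at -0.22, Dppa2, Dppa4 and Dppa5a in line 3 at 0.016, 0.014 and 0.031, and Dppa3 and Dppa5a between lines 1 and 2 at 0.013 and -0.12. Between lines 2 and 3 it gave 0.18 for Dppa3 and 0.030 for Dppa5a. Centring moved the all-gene median by 0.12 between lines 1 and 2 and by -0.13 between lines 2 and 3.

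Dppa2 in line 1 lost its call with no filter (-0.26), the mean of probe sets (-0.25), _x_at and _s_at probe sets left out (-0.25), each probe set tested (-0.26), no variance trend (-0.26) and the compared groups alone (-0.26). Without the trend, calls were also lost for Dppa4 in the mean (-0.38), Dppa3 in lines 1 and 3 (0.95 and 0.75) and Dppa5a between lines 1 and 2 (-0.24). Among the list genes that passed in all 3 lines, Lef1, Nr0b1, Tbx3 and Ifitm3 then lost their calls in lines 1 and 3. Without line 2, the means were -0.14 for Dppa2, -0.17 for Dppa4, -0.055 for Dppa5a and 0.041 for Dnmt3l. With line means as samples, 0 genes passed in limma and 284 had an unadjusted p under 0.05, so that Dppa2 (-0.56), Dppa3 (0.92) and Dppa4 (-0.38) lost their calls. Dppa3 between lines 2 and 3 passed with the larger pseudocount (0.31), the 6-array filter (0.31) and _x_at and _s_at left out (0.31).

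The replicate block also gave Dppa3 a call between lines 2 and 3 (0.31) and changed no other Dppa call. Over all genes, same-numbered arrays deviated together with r of -0.01 to 0.03. The labels do not say what the numbers stand for, and an effect shared by number on part of the genes was not tested.

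Leaving out 1 array gave, in the mean, -0.42 to -0.33 for Dppa4 and -0.056 to 0.082 for Dppa5a. In line 1 it gave -0.32 to -0.20 for Dppa2 and -0.45 to -0.15 for Dppa4, and in line 3 -0.084 to 0.054 for Dppa5a. Between lines 1 and 2 the ranges were -0.24 to 0.016 for Dppa3 and -0.31 to -0.18 for Dppa5a, between lines 1 and 3 -0.41 to -0.12 for Dppa4, and between lines 2 and 3 0.13 to 0.49 for Dppa3 and 0.10 to 0.23 for Dppa5a.

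Without the variance trend the genes called went from 1022 to 288 in the mean, 327 to 47 in line 1, 3743 to 2445 in line 2, 582 to 22 in line 3, 3266 to 1858 between lines 1 and 2 and 194 to 17 between lines 1 and 3. In the mean the count was 491 without line 2, 317 without ES replicate 1 and 425 without ES replicate 2. The mean of probe sets gave 214 in line 1 and 356 in line 3. Leaving out 1 array gave 104 to 349, 182 to 602 and 52 to 191 in line 1, line 3 and lines 1 against 3. Without the trend, the counts of the lists in the mean were 0 higher and 1 lower (methylation), 0 and 2 (germ cell), 0 and 1 (maternal complex), 0 and 1 (pluripotency) and 1 and 1 (formative). With arrays centred, 4 pluripotency genes were lower in the mean, and Tbx3 lost its call in line 3.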
